A study of Homo sapiens with 6 samples.

Results

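The 8 genes described here encode receptors for neurotrophic ligands with known roles in neuroblastoma: ALK, RET, the RET co-receptors GFRA1, GFRA2 and GFRA3, and the neurotrophin receptors NGFR, NTRK2 and NTRK3. They were chosen by name, as the rows of the count table whose Ensembl identifiers map to these symbols, and are 8 of its 64252 rows. Messenger RNA was sequenced in bulk from SK-N-BE(2), an established human neuroblastoma cell line with amplified MYCN. The 3 groups of 2 libraries each were cells that received hairpin 1 against BCAT1 (labelled shBCAT1#1), cells that received hairpin 2 against BCAT1 (shBCAT1#2) and cells that received a control hairpin (shControl). BCAT1 encodes an aminotransferase of the cytosol that acts on leucine, isoleucine and valine. All groups share the cell line and the introduction of a short hairpin RNA, so the control cells are not untreated cells, and no time after transfection was read from the labels. The labels do not say that the 2 libraries of a group are separate cultures. The p-values therefore reflect only how far libraries of a group varied, and that variation may be technical. In bulk RNA, fewer cells expressing a gene and less RNA per cell cannot be told apart.

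ALK and RET are receptor tyrosine kinases of the developing sympathetic nervous system, the lineage from which neuroblastoma arises. RET binds its ligands only together with a GFRA co-receptor that is anchored to the membrane by a lipid. NGFR, the p75 receptor, binds every neurotrophin and has no kinase, whereas NTRK2 and NTRK3 are kinases for BDNF and NTF3. Activating ALK mutations occur in familial and sporadic neuroblastoma, and the balance of neurotrophin receptors has long been studied as a correlate of how these tumours differentiate.

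Total counts per library ran from 32333416 to 39321388. Levels are CPM, a gene's count relative to the library's total count after TMM scaling, and a gene was called higher or lower where the edgeR quasi-likelihood p, adjusted by Benjamini-Hochberg over the 18734 genes tested, was under 0.05. The targeted transcript was checked first. BCAT1 stood at 55.7 and 55.3 CPM with hairpin 1 and at 115 and 111 CPM with hairpin 2, against 459 and 475 CPM with the control hairpin. Relative to control, its log2 fold change was -3.07 with hairpin 1 (SE 0.04, edgeR adjusted p = 1.8e-08) and -2.04 with hairpin 2 (SE 0.04, edgeR adjusted p = 1.3e-07), so every library went with its label. The summed CPM of 10 sympathoadrenal markers was 3377 to 3468 with hairpin 1, 2869 to 2973 with hairpin 2 and 3912 to 3920 in control, and all 10 passed the filter on low counts. Most of that sum was MYCN, at 1824 ± 5.04 CPM with hairpin 1, 1758 ± 80.3 with hairpin 2 and 2260 ± 13.8 in control (SD, n = 2 each), and other markers in it were ordered differently. DBH, which makes noradrenaline, averaged 76.3, 15.1 and 37.5 CPM with hairpin 1, hairpin 2 and control, CHGB, a granule protein, 307, 74.0 and 128 CPM, and TH, the first enzyme of catecholamine synthesis, 37.2, 18.2 and 27.7 CPM, so these 3 were highest with hairpin 1 and lowest with hairpin 2, as NGFR was. Of 6 Schwann lineage markers, which matter because that lineage also carries NGFR, the sum was 1.82 to 2.58, 2.45 to 2.70 and 2.83 to 2.998 CPM in the same groups, with SOX10 at 0 in every library. The 6 fibroblast markers summed to 749 to 751, 829 to 831 and 1161 to 1168 CPM, and the 6 mesenchymal markers to 5838 to 6263, 4348 to 4545 and 5773 to 5810 CPM, of which VIM alone made up 5910, 4297 and 5627 CPM on average. The 4 immune markers summed to 29.1 to 33.7, 14.4 to 17.8 and 34.5 to 37.8 CPM, with CD3E at 0. The part of these marker levels in the receptor differences was not tested.

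Of the 8 receptors, 6 had counts high enough to be tested (RET, ALK, GFRA2, NGFR, NTRK3 and GFRA3). NTRK2, the BDNF receptor, had 2 counts in a single hairpin 2 library and 0 in the other 5 libraries, where a count of 0 allows up to 0.0770 to 0.0924 CPM. GFRA1, the co-receptor for GDNF, had 9 and 4 counts with hairpin 1, 9 and 13 with hairpin 2 and 8 and 0 in control. Neither passed the filter on low counts. Fitted without that filter, GFRA1 had edgeR adjusted p-values of 0.45 to 0.72 over the 4 comparisons, and no difference was detectable at this depth, whereas NTRK2 was not compared between groups.

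Levels were compared between genes as CPM per kilobase of annotated exon. In control cells the order was RET at 137 ± 4.01, GFRA2 at 5.40 ± 0.146, ALK at 3.31 ± 0.199, NGFR at 1.57 ± 0.272, GFRA3 at 0.544 ± 0.0546 and NTRK3 at 0.282 ± 0.0403 CPM per kilobase (SD, n = 2 each). With hairpin 1, ALK (6.30 ± 0.0525) and NGFR (2.98 ± 0.0177) stood above GFRA2 (1.56 ± 0.0397). With hairpin 2 the order was RET, GFRA2 (7.49 ± 0.396), ALK (3.02 ± 0.0795) and NGFR (0.874 ± 0.173), while NTRK3 (0.355 ± 0.0085) and GFRA3 (0.327 ± 0.0178) lay close together. That closeness depended on the length used. Per kilobase of the longest transcript, NTRK3 stood at 0.475 ± 0.0114 and GFRA3 at 0.327 ± 0.0178 with hairpin 2. RET was the highest of the 8 in every library.

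**Figure D1:**
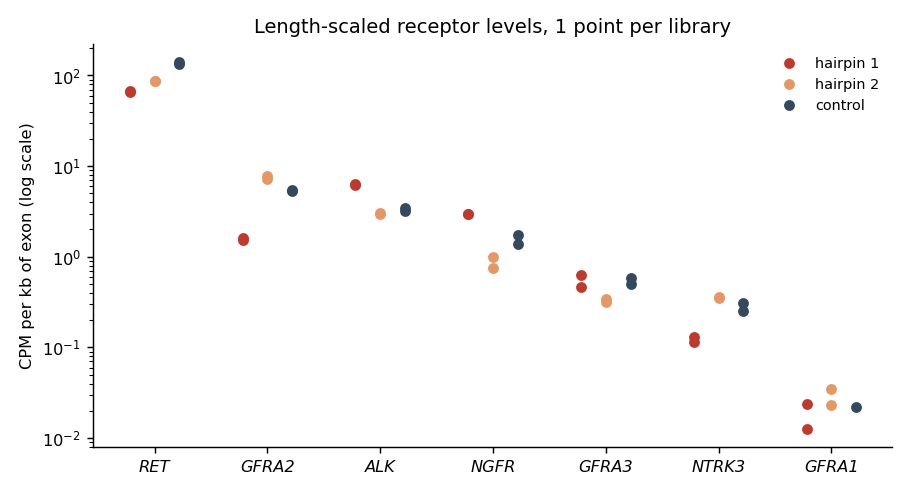
Level of each receptor as CPM per kilobase of annotated exon on a log axis, 1 point per library, with hairpin 1, hairpin 2 and control from left to right. NTRK2, with counts in a single library, was left out, and the control library of GFRA1 with no counts cannot be drawn on a log axis. RET stands above all others, and the places of GFRA2, ALK and NGFR differ between the hairpins.

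RET fell with both hairpins. Its identifier is ENSG00000165731, and it occupies chr10:43077027-43130351 on the plus strand of hg38. RET had 456 and 461 CPM with hairpin 1 and 608 and 600.5 CPM with hairpin 2, against 966 and 927 CPM in control. The 3 groups did not overlap, and control was the highest. Relative to control the log2 fold change was -1.04 with hairpin 1 (SE 0.04, 95% interval -1.13 to -0.95, edgeR adjusted p = 6.3e-07), which is 2.06-fold lower. With hairpin 2 it was -0.65 (SE 0.04, 95% interval -0.74 to -0.56, edgeR adjusted p = 6.9e-06), or 1.57-fold lower. Setting hairpin 2 against hairpin 1 gave 0.40 (SE 0.04, edgeR adjusted p = 6.7e-05), so the size of the fall differed between the hairpins.

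The cell line has amplified MYCN, which encodes N-Myc, a transcription factor that binds E-boxes. For that reason, the bases before the annotated starts of RET and ALK, the most abundant receptor kinases of the set, are shown. They are RefSeq windows on GRCh38.p14, printed 5′ to 3′ on the gene's strand, without bases inside an annotated exon. Capitals mark CACGTG (the E-box) or GGGCGG (a GC box), read on both strands with overlapping matches counted. CACGTG was the only form of E-box searched, and the counts of E-boxes below cover no other form.
RET, chr10:43076819-43077026, plus strand: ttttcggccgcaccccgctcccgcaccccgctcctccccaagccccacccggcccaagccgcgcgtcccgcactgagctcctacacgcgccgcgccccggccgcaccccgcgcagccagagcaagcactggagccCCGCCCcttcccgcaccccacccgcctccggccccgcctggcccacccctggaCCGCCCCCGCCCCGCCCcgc
ALK at the start of the gene, chr2:29921587-29921836, minus strand: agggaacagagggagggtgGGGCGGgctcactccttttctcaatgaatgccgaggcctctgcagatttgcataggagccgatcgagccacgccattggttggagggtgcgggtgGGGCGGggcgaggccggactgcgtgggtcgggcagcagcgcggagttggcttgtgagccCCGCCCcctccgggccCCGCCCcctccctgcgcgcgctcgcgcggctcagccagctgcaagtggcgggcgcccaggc
ALK at an internal start in intron 19, chr2:29223901-29224073, minus strand: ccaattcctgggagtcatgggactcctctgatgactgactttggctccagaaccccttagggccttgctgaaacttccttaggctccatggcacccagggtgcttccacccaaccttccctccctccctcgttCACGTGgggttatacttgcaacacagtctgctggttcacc
The RET stretch held 4 GC boxes and no E-box, and the stretch at the start of ALK also held 4 GC boxes and no E-box. The internal ALK start, 697743 bases into the gene, had 1 E-box, which began 117 bases before that start. Among 14 such windows of 250 bases, from 6 of the receptors, 1 held the E-box and 8 held a GC box. Over all 35116 windows of the table, 6.34% held the E-box and 42.6% a GC box. A match is a description of letters, and the counts do not separate transcripts by their start.

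The RET co-receptors took different courses. GFRA2, the co-receptor for neurturin (ENSG00000168546, chr8:21690403-21812357, minus strand), had 9.10 and 8.78 CPM with hairpin 1 and 44.4 and 41.2 CPM with hairpin 2, against 31.5 and 30.3 CPM in control. Hairpin 1 lay below control and hairpin 2 above it, with no overlap. The log2 fold change was -1.79 with hairpin 1 (SE 0.08, edgeR adjusted p = 1.1e-06), a 3.45-fold fall. With hairpin 2 it was 0.47 (SE 0.07, edgeR adjusted p = 7.4e-04), a 1.39-fold rise. The difference between the hairpins, 2.26 (SE 0.08, edgeR adjusted p = 3.3e-07), was exceeded in size by 323 of the 18734 genes tested.

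GFRA3, the co-receptor for artemin (ENSG00000146013, chr5:138252379-138274671, minus strand), was scarce. Its levels were 1.29 and 0.955 CPM with hairpin 1 and 0.693 and 0.642 CPM with hairpin 2, against 1.03 and 1.19 CPM in control. The hairpin 1 libraries spread across the control values, while both hairpin 2 libraries lay below them. Neither difference passed, at 0.02 for hairpin 1 (SE 0.28, 95% interval -0.61 to 0.66, edgeR adjusted p = 0.96) and -0.73 for hairpin 2 (SE 0.29, 95% interval -1.39 to -0.07, edgeR adjusted p = 0.065).

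**Figure D2:**
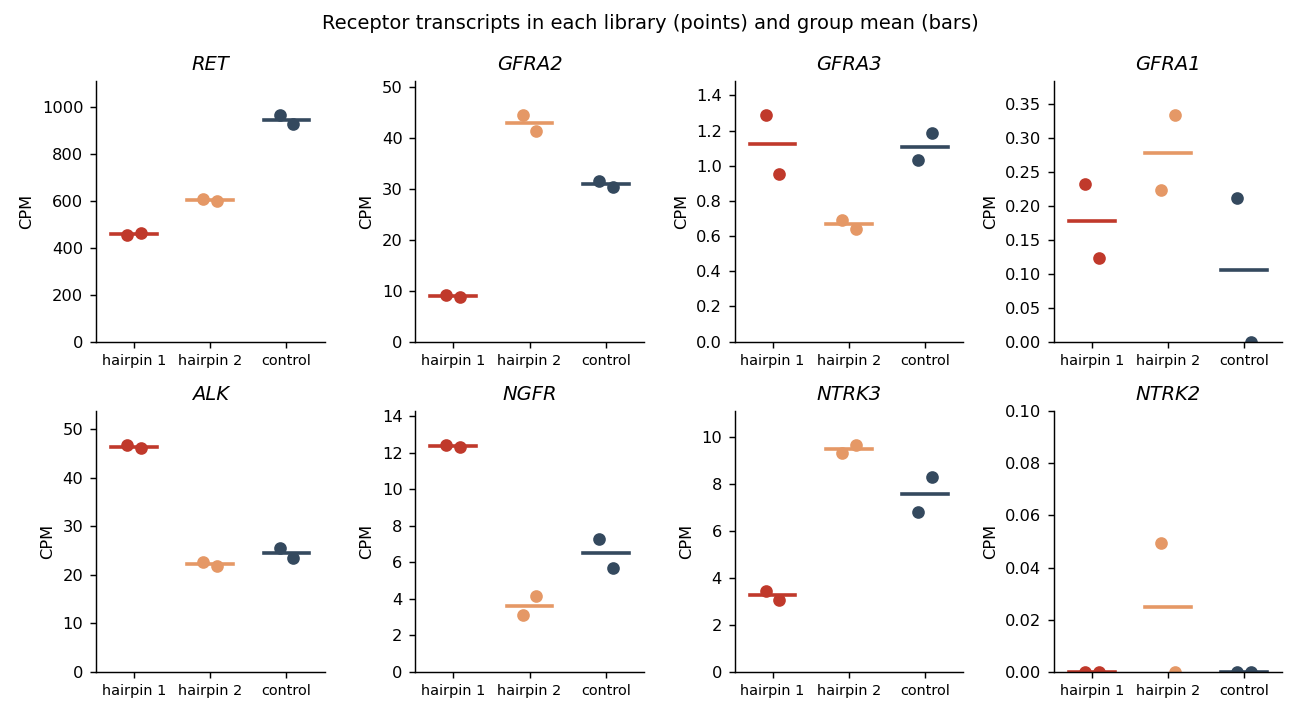
CPM of each of the 8 receptors in every library (points) with the group mean (bars), each panel with its own axis from 0, with hairpin 1, hairpin 2 and control from left to right. RET is lowest with hairpin 1 and highest in control, ALK and NGFR are highest with hairpin 1, and GFRA2 and NTRK3 are lowest with hairpin 1.

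ALK rose with hairpin 1. It is encoded by ENSG00000171094 at chr2:29192774-29921566 on the minus strand. ALK had 46.6 and 46.1 CPM with hairpin 1 and 22.6 and 21.8 CPM with hairpin 2, against 25.4 and 23.3 CPM in control. The hairpin 1 libraries stood apart from all others, and both hairpin 2 libraries lay just below the lower control. The log2 fold change was 0.93 with hairpin 1 (SE 0.07, 95% interval 0.77 to 1.09, edgeR adjusted p = 1.4e-05), or 1.90-fold higher. With hairpin 2 it was -0.13 (SE 0.07, 95% interval -0.30 to 0.03, edgeR adjusted p = 0.16) and did not pass, and it ran from -0.20 without control replicate 2 to -0.07 without control replicate 1. Hairpin 2 against hairpin 1 gave -1.06 (SE 0.07, edgeR adjusted p = 7.2e-06).

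NGFR moved in opposite directions with the hairpins. NGFR (ENSG00000064300, chr17:49495293-49515017, plus strand) had 12.4 and 12.3 CPM with hairpin 1 and 3.12 and 4.13 CPM with hairpin 2, against 7.30 and 5.70 CPM in control. The groups did not overlap. It rose by 0.93 on the log2 scale with hairpin 1 (SE 0.16, 1.90-fold, edgeR adjusted p = 0.0017) and fell by 0.84 with hairpin 2 (SE 0.17, 1.79-fold, edgeR adjusted p = 0.0037). Between the hairpins NGFR differed by -1.77 (SE 0.17, edgeR adjusted p = 6.1e-05). Of its exonic bases, 22.3% overlap an opposite-strand gene that had 2 counts in all 6 libraries together, and 4.87% overlap another that had 0.

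NTRK3, the NTF3 receptor kinase (ENSG00000140538, chr15:87859751-88256768, minus strand), fell with hairpin 1. It had 3.45 and 3.08 CPM with hairpin 1 and 9.33 and 9.65 CPM with hairpin 2, against 6.79 and 8.32 CPM in control. Hairpin 1 lay below both controls and hairpin 2 above both. The log2 fold change was -1.21 with hairpin 1 (SE 0.14, edgeR adjusted p = 1.8e-04), or 2.31-fold lower, and 0.33 with hairpin 2 (SE 0.14, edgeR adjusted p = 0.074), which did not pass. The difference between the hairpins was 1.54 (SE 0.14, edgeR adjusted p = 5.1e-05). After correction for GC content and length the hairpin 2 value was -0.15 (edgeR adjusted p = 0.40), and without control replicate 2 it was 0.48 (edgeR adjusted p = 0.040), so the sign differed between these fits.

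**Figure D3:**
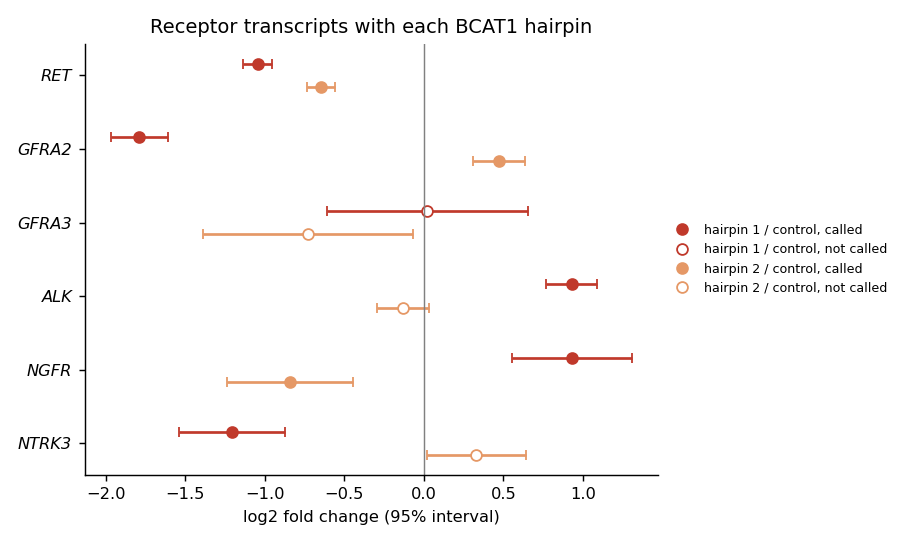
Log2 fold change against control of the 6 tested receptors, with 95% intervals, for hairpin 1 and hairpin 2, where filled points passed the threshold and open points did not. RET lies below 0 with both hairpins, NGFR lies on opposite sides of 0, and GFRA2 lies below 0 with hairpin 1 and above it with hairpin 2.

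Counted over the 6 tested receptors, 2 were higher (ALK and NGFR) and 3 lower (RET, GFRA2 and NTRK3) with hairpin 1, where 24.2% of all tested genes were called higher and 24.9% lower, 49.1% in all. With hairpin 2, 1 was higher and 2 were lower (background 23.9% higher, 25.4% lower and 49.3% in all). The median log2 fold change of the 6 was -0.51 with hairpin 1 and -0.39 with hairpin 2, beside -0.01 over all genes in both comparisons. Between hairpin 2 and hairpin 1, 3 were higher and 2 lower, where 22.9% and 23.3% of all genes were called, 46.2% in all. The comparisons of each hairpin with control share the control libraries. For the mean of both hairpins, 1 receptor was higher (ALK, 0.40) and 3 were lower (RET, -0.85, GFRA2, -0.66, and NTRK3, -0.44), where 23.6% of all tested genes were called higher and 26.4% lower, 50.0% in all. NGFR stood at 0.04 and GFRA3 at -0.35 there, and neither passed. NTRK3 did not pass there without control replicate 2 (-0.29, edgeR adjusted p = 0.15), while correction for GC content and length gave -0.88 (edgeR adjusted p = 1.8e-04). For GFRA2 and NGFR the mean covers opposite directions. Across 17459 tested genes with known GC content, the log2 fold change fell with GC content (Spearman rho -0.25 with hairpin 1 and -0.38 with hairpin 2, a description across genes). Corrected for GC content and length, RET stood at -1.04 with hairpin 1 and -0.63 with hairpin 2, GFRA2 at -1.72 and 0.57, NGFR at 1.16 and -0.57, ALK at 0.96 with hairpin 1 and NTRK3 at -1.61 with hairpin 1, and each of these still passed in edgeR.

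Ligands came next, from 12 listed genes of which 5 were tested. MDK, the growth factor midkine, for which ALK has been described as a receptor, had 63.5 and 62.4 CPM with hairpin 1 and 71.7 and 64.7 CPM with hairpin 2, against 151 and 144 CPM in control. Its log2 fold change was -1.23 with hairpin 1 (edgeR adjusted p = 1.3e-06) and -1.11 with hairpin 2 (edgeR adjusted p = 3.6e-06). NRTN, the GFRA2 ligand neurturin, had 1.11 and 1.26 CPM with hairpin 1 and 0.965 and 0.976 CPM with hairpin 2, against 3.25 and 2.46 CPM in control. It fell with hairpin 1 by 1.27 (edgeR adjusted p = 0.0019) and with hairpin 2 by 1.55 on the log2 scale (edgeR adjusted p = 6.6e-04). PTN, the related growth factor pleiotrophin, was abundant and rose with hairpin 1 by 0.29 on the log2 scale (edgeR adjusted p = 0.0025), while hairpin 2 gave -0.06 (edgeR adjusted p = 0.41). ARTN and PSPN, the ligands of GFRA3 and GFRA4, were not called. BDNF, NTF3, NTF4 and GDNF were under the filter, and ALKAL1 and ALKAL2, the ALK ligands, were listed at 0 in every library.

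Among 14 listed co-receptors, 10 were tested, and 1 was higher and 3 lower with hairpin 1, while 3 were higher and 2 lower with hairpin 2. Of all tested genes, 24.2% were called higher and 24.9% lower with hairpin 1, and 23.9% higher and 25.4% lower with hairpin 2. SORT1, the sortilin that partners NGFR, had 18.2 and 18.3 CPM with hairpin 1 and 36.8 and 35.7 CPM with hairpin 2, against 28.5 and 28.0 CPM in control, which gave log2 fold changes of -0.63 with hairpin 1 and 0.36 with hairpin 2 (edgeR adjusted p = 1.0e-04 and 0.0022). SDC3, a heparan sulphate proteoglycan that binds these ligands, fell by 0.32 with hairpin 1 and by 1.69 with hairpin 2 (edgeR adjusted p = 5.6e-04 and 6.2e-07). SORCS1, a sortilin relative, rose by 0.89 with hairpin 1 and 0.23 with hairpin 2 (edgeR adjusted p = 1.6e-05 and 0.025). NCAM1, an adhesion molecule that can bind GDNF, gave 0.07 with hairpin 1 and 0.18 with hairpin 2 (edgeR adjusted p = 0.17 and 0.005). LINGO1, an NGFR partner, gave 0.11 with hairpin 1 and -0.84 with hairpin 2 (edgeR adjusted p = 0.58 and 0.0017). LTK, the kinase most related to ALK, SORCS2, RTN4R and TNFRSF19 were not called against control, and LTK differed between the hairpins by 0.77 (edgeR adjusted p = 0.0075).

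**Figure D4:**
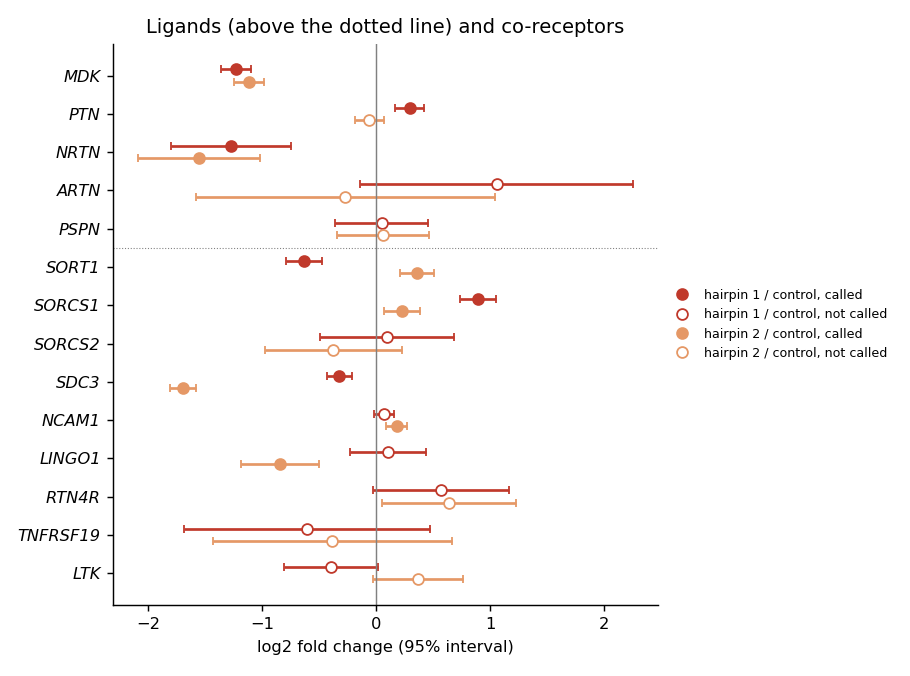
Log2 fold change against control with 95% intervals for the 5 tested ligands, above the dotted line, and 9 of the 10 tested co-receptors, below it, for hairpin 1 and hairpin 2, where filled points passed the threshold. MDK and NRTN lie below 0 with both hairpins, and SORT1 lies on opposite sides of 0.

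Counts of intracellular partners follow, and the lists were not tested as sets. The shares over all tested genes were 24.2% higher and 24.9% lower with hairpin 1, and 23.9% higher and 25.4% lower with hairpin 2. Of 13 NGFR partners, 5 were higher and 3 lower with hairpin 1, and 4 higher and 7 lower with hairpin 2. BEX3, which binds the intracellular part of NGFR, had 50.4 and 51.9 CPM with hairpin 1 and 111 and 125 CPM with hairpin 2, against 154 and 159 CPM in control. KIDINS220, a scaffold of neurotrophin receptors, rose by 0.35 with hairpin 1 and 0.76 with hairpin 2 on the log2 scale (edgeR adjusted p = 2.9e-04 and 6.7e-06). Of 32 adaptors, 18 were higher and 6 lower with hairpin 1, and 11 higher and 6 lower with hairpin 2. SHC1, the adaptor that couples these receptors to RAS, had 276 and 272 CPM with hairpin 1 and 519 and 530.0 CPM with hairpin 2, against 656 and 651 CPM in control. With hairpin 1 and hairpin 2, PIK3R1, a regulatory subunit of PI3-kinase, rose by 1.16 and 0.60 on the log2 scale. IRS2, an insulin receptor substrate, rose by 0.62 with hairpin 1 and 0.89 with hairpin 2, while the docking protein DOK1 fell by 0.54 with hairpin 1 and by 0.28 with hairpin 2.

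In the kinase cascades, 8 of 19 genes were higher and 4 lower with hairpin 1, and 8 higher and 7 lower with hairpin 2. On the log2 scale, MAP2K5, a kinase of the ERK5 branch, rose by 0.75 with hairpin 1 and 0.45 with hairpin 2. MAP2K2, which encodes MEK2, fell by 0.35 with hairpin 1 and by 1.06 with hairpin 2, and MAPK3, which encodes ERK1, fell by 0.73 with hairpin 1 and by 0.30 with hairpin 2. The 15 tested genes of ERK feedback split into 5 higher and 5 lower with hairpin 1 and 4 higher and 7 lower with hairpin 2. The transcription factor ETV1 rose by 0.73 with hairpin 1 and 0.29 with hairpin 2, and SPRED2, an inhibitor of RAS signalling, by 0.43 with hairpin 1 and 0.34 with hairpin 2. The ERK phosphatase DUSP6 fell by 0.53 with hairpin 1 and by 0.56 with hairpin 2, and DUSP5 fell by 1.10 with hairpin 1 and by 0.33 with hairpin 2. Over all 117 tested genes of the 7 lists, 41 were higher and 38 lower with hairpin 1 and 37 higher and 35 lower with hairpin 2, and the medians were 0.03 and -0.04, beside -0.01 over all genes in each.

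Genes with the most similar profile were those with the smallest root mean square difference of centred log2 CPM over the 6 libraries, among 13393 genes. For RET these were SPHK1 (0.0362) and SLC13A4 (0.0441), for ALK NR4A1 (0.0436) and FAM83G (0.0437), for GFRA2 KCNJ12 (0.0719) and SH3GL3 (0.0825), for NTRK3 YWHAZ (0.0621) and RIN2 (0.0805), for NGFR UPB1 (0.108) and ACTL6B (0.109), and for GFRA3 LSM12 (0.0596) and USP2 (0.0730). With Pearson correlation as the measure, 0 of the 12 were chosen.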

How the data were processed

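RNA was sequenced from 6 libraries in 3 groups, assigned by the sample titles. The authors deposited raw read counts, as whole numbers with 1 row per Ensembl identifier and no normalization. Per the submitters' processing notes, HISAT2 2.2.0, StringTie and the hg38 build were used. The annotation release, counting options, strand setting and version of StringTie were not given in the sources used here. Symbols came from a name table that held 56105 of the 64252 identifiers. Coordinates and exon lengths came from GENCODE release 29.

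Tests were run with edgeR 4.0.16 in R 4.3.3: filterByExpr (minimum count 10), TMM scaling, and a quasi-likelihood fit with a term per group over all 6 libraries, two-sided, with Benjamini-Hochberg adjustment over 18734 genes. The procedure was first tested on simulated counts. Each standard error was the log2 change divided by the root of F. A count of 0 was given a floor of 3 counts, which covers counting error only. Replicates differed by more than sampling noise (mean chi-square per gene 5.87 to 8.63), and each library was counted. That spread does not show that the libraries of a group are separate cultures. The receptors and the lists were chosen with earlier results of these data known. Named genes were the 8 receptors, every tested ligand and co-receptor, the 2 largest rises and falls of each other list among called genes with a mean CPM of at least 5, and the 2 nearest profiles per receptor. Some listed genes are counted in their lists but not reported here by name. Alternatives were DESeq2 1.42.0, limma-voom 3.58.1, other size factors, other filters, a fold threshold of 1.5, GC and length correction, a replicate block and leaving out each library.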

Additional observations from a re-analysis of the deposited data

Results flagged for a closer look

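The effects of the hairpins differed from each other in 5 of the 6 tested receptors, by the edgeR contrast of hairpin 2 against hairpin 1, which does not use the control libraries for its fold change. In that contrast 46.2% of all 18734 tested genes were called. GFRA2 had a log2 difference of 2.26, with hairpin 2 above control and hairpin 1 below it. NTRK3 differed by 1.54. NGFR differed by -1.77, with hairpin 1 above control and hairpin 2 below it. ALK differed by -1.06, with a rise past the threshold in hairpin 1. RET differed by 0.40 and was below control with each hairpin. BCAT1 itself also differed between the hairpins, by 1.03 on the log2 scale, with 55.5 ± 0.312 CPM in hairpin 1 and 113 ± 3.12 CPM in hairpin 2 (SD, n = 2 each), and its part in these differences was not tested.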

How the results depend on the processing

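Of 402 recomputed receptor results, 385 kept their direction and side of the threshold, 9 no longer passed, 2 newly passed and 6 changed sign. The sign changes were those of NGFR for both hairpins, which ran from -0.13 to 0.23 with 1 library left out, of GFRA3 with hairpin 1, which ran from -0.22 to 0.22 with 1 library left out, and of NTRK3 with hairpin 2, at -0.15 after GC and length correction and -0.15 with the replicate block added to it. None of these had passed before. With 1 library left out, the receptors called numbered 3 to 5 for both hairpins, 5 for hairpin 1, 3 to 4 for hairpin 2 and 5 between hairpins. Required to exceed a fold of 1.5 in edgeR, 1 receptor was called for both hairpins in place of 4. For hairpin 1, and also between hairpins, 4 were called in place of 5. For hairpin 2, 0 were called in place of 3, where 2 had an unadjusted p under 0.05. RET with hairpin 2 (edgeR adjusted p = 0.18) thus did not pass that fold. NGFR did not pass it with hairpin 1 or hairpin 2 (edgeR adjusted p = 0.085 and 0.21). DESeq2 and limma were not run with that fold. The listed genes called then fell to 10 from 74 for both hairpins, to 19 from 79 for hairpin 1, to 13 from 72 for hairpin 2 and to 14 from 80 between hairpins. Over all genes, that fold left 1039 of 9361, 1769 of 9199, 1397 of 9236 and 1774 of 8650 calls in the same order. Replicate 1 deviations correlated between groups by -0.04 to 0.00, so no shift shared by libraries of the same number was visible. The labels do not say whether such libraries were handled together. The replicate block gave 4, 5, 3 and 5 receptors, as without it. Low counts limit GFRA1, NTRK2 and GFRA3.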

Other observations

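Receptor tyrosine kinases outside the set were listed as well. Of 26 listed kinases 23 were tested, and 3 were higher and 15 lower with hairpin 1, while 7 were higher and 4 lower with hairpin 2. Of all tested genes, 24.2% were called higher and 24.9% lower with hairpin 1, and 23.9% higher and 25.4% lower with hairpin 2. The hairpin 2 count of higher kinases lay somewhat above its share, and that of lower kinases below its share. The median log2 fold change was -0.33 with hairpin 1 and -0.04 with hairpin 2, beside -0.01 over all genes in each. ROR2, a receptor for WNT5A, fell by 0.92 with hairpin 1 and by 1.02 with hairpin 2 on the log2 scale (edgeR adjusted p = 2.0e-05 and 1.6e-05). ROR1, its relative, rose by 1.02 with hairpin 1 and 0.44 with hairpin 2 (edgeR adjusted p = 1.4e-04 and 0.013). DDR1, a collagen receptor, rose by 0.54 with hairpin 1 and 0.44 with hairpin 2 (edgeR adjusted p = 0.0023 and 0.0068). FGFR2 fell with hairpin 1 by 0.89 (edgeR adjusted p = 6.3e-04), and hairpin 2 gave -0.03 (edgeR adjusted p = 0.88).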
